A study of Homo sapiens with 4 samples.

Results

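The 10 genes described here were the metallothionein genes MT1A, MT1B, MT1E, MT1F, MT1G, MT1H, MT1M, MT1X and MT2A together with MTF1. The genes were chosen by name. Every probe whose transcript accession belongs to one of these genes in RefSeq was taken, since the array files carry accessions and no gene symbols, and 12 such probes of 34127 were found, for 10 of 19102 named genes. Metallothioneins are small, cysteine-rich proteins that bind zinc, copper and cadmium, and their genes are known to be induced by metals, by oxidative and other stress and by glucocorticoids. MTF1, the metal-sensing transcription factor, is known to bind metal response elements in their promoters when zinc is high, and the same factor acts on SLC30A1, which exports zinc from the cell. Zinc accumulates in normal prostate epithelium and is known to be lower in prostate cancer.

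The probes were measured in PC3 cells, a human prostate cancer line grown from a bone metastasis. All cells carried a lentivirus with an shRNA, either against ALKBH3, a demethylase that repairs alkylated DNA, or against GFP as control, and all had been selected with puromycin, for 48 h or for 96 h after infection. Total RNA of each of the 4 combinations was hybridised to 1 single-colour Agilent array, and 1 slide held both arrays of a time point. Time point and slide therefore cannot be told apart, whereas each comparison of the shRNAs lies within a slide. From the labels neither the ALKBH3 hairpin is known nor whether the cells of both time points came from separate infections, so p-values measure only the spread between these 4 arrays, and so few arrays give little precision.

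Both ALKBH3 probes gave a lower signal with ALKBH3 shRNA on each slide. The difference was -2.04 at 48 h and -2.06 at 96 h on the log2 scale for the first probe, and -1.75 and -1.51 for the second. On each array between 67.0% and 70.9% of all probes were well above background by the image software. The epithelial markers KRT8, KRT18, EPCAM and CDH1 were well above background on all 4 arrays, and the probe of KLK3, which encodes prostate-specific antigen, was so on 0 arrays.

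Of the 12 probes, 11 belong to the 9 metallothionein genes and 1 to MTF1. The coding sequences of the metallothionein genes are close to identical, so a probe can also bind transcripts of its neighbours, and the genes are described as a group. Probes of 8 metallothionein genes, 9 in all, were well above background on all 4 arrays. The only probe of MT1G and 1 of both probes of MT1H were well above background on 0 arrays, with intensities between 9.73 and 24.0 for MT1G and between 8.96 and 22.3 for MT1H, and no fold is given for them. MT1X had 2 detected probes, which are told apart here by their intensity, as the brighter and the dimmer one. None of the member spots was saturated or marked as poor.

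RefSeq promoters on GRCh38.p14 were at hand for 5 of the 10 genes, MT2A, MT1B, MT1H, MT1X and MTF1. The 250 bases before the start of the 4 metallothionein genes, all on the plus strand of chromosome 16, are shown because their probes had similar patterns over the arrays and because the metal response element is the known route of induction. Capitals mark the core of that element, TGCACNC or TGCGCNC, read on both strands (GNGTGCA and GNGCGCA on the reverse), and none of the matches overlap. The windows are chr16:56608334-56608583 for MT2A, chr16:56651636-56651885 for MT1B, chr16:56669564-56669813 for MT1H and chr16:56682220-56682469 for MT1X.
MT2A: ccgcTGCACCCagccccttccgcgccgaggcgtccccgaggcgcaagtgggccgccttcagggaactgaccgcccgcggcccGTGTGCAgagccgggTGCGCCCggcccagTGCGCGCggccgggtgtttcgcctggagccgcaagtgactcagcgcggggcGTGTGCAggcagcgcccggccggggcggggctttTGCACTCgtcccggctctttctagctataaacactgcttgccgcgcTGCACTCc
MT1B: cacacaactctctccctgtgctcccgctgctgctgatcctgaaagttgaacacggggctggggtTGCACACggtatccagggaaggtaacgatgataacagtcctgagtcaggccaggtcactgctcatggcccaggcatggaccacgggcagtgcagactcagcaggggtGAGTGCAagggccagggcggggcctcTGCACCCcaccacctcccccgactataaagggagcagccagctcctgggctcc
MT1H: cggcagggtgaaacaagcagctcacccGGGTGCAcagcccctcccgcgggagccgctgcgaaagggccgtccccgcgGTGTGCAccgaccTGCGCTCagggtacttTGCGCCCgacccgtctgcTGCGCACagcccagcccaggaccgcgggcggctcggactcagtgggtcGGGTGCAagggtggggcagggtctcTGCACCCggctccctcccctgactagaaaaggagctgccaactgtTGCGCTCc
MT1X: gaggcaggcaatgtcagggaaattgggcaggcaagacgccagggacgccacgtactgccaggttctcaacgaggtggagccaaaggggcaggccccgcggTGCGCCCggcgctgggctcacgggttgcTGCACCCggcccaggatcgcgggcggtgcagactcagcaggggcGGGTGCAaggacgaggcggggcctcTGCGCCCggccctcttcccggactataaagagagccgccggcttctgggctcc
The core occurred 7 times before MT2A, 3 times before MT1B, 8 times before MT1H and 4 times before MT1X. Among 35116 RefSeq promoter windows of the same length, 24.8% held at least 1 match, 1.58% at least 3, 0.37% at least 4, 0.0313% at least 7 and 0.0171% at least 8. The window before MTF1 on chromosome 1 held 0 matches and that before SLC30A1 held 1, while that before MT4, a metallothionein gene whose probe was well above background on 0 arrays, held 3. A match is a description of the letters and not a measured binding site.

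All 9 detected metallothionein probes gave a higher signal with ALKBH3 shRNA than with control shRNA on the slide of 48 h and again on the slide of 96 h. Over all 23244 probes tested, 34.3% were higher at both time points. The difference was modest at 48 h, with a median of 0.42 on the log2 scale (1.34-fold) and a range from 0.17 to 0.70. At 96 h the median was 0.86 (1.81-fold) and the range from 0.59 to 1.0. Over all probes tested the median difference was -0.01 at 48 h and 0.02 at 96 h, and its median size 0.15 at each. All values below are log2 signals relative to the 75th percentile of the array, and differences are ALKBH3 minus control shRNA on that scale.

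MT2A, a broadly expressed metallothionein, stood at 6.48 with control and 6.90 with ALKBH3 shRNA at 48 h and at 6.16 and 6.80 at 96 h. These correspond to intensities of 190710, 271576, 166991 and 266664. Both arrays with ALKBH3 shRNA lay above both control arrays. The difference of 0.42 at 48 h and 0.65 at 96 h came to 0.53 ± 0.16 over both (SE; limma adjusted p = 0.559). Here and below, unless a block is named, the SE counts the difference between the time points as spread within an shRNA.

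The MT1 genes encode further zinc and copper binding isoforms. MT1X, by its brighter probe, stood at 3.61 with control and 4.11 with ALKBH3 shRNA at 48 h and at 3.15 and 4.15 at 96 h. MT1E stood at 2.53 and 3.03 at 48 h and at 2.07 and 3.07 at 96 h. For both, the control array at 96 h was lowest and the ALKBH3 array at 96 h highest, and the difference was 0.50 at 48 h and 1.0 at 96 h. Over both time points it was 0.75 ± 0.19 for MT1X and 0.75 ± 0.19 for MT1E (SE; limma adjusted p = 0.463 for each). These were the only 2 metallothionein probes that reached 2-fold at 96 h.

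MT1B stood at 3.72 with control and 4.18 with ALKBH3 shRNA at 48 h and at 3.30 and 4.23 at 96 h. MT1H stood at 3.44 and 3.85 at 48 h and at 3.0 and 3.86 at 96 h. MT1A stood at 4.51 and 4.76 at 48 h and at 4.20 and 4.83 at 96 h. In these 3 genes the order of the arrays was that of MT1E, from control at 96 h over control at 48 h and ALKBH3 at 48 h to ALKBH3 at 96 h. The difference over both time points was 0.69 ± 0.18 for MT1B, 0.63 ± 0.18 for MT1H and 0.44 ± 0.16 for MT1A (SE; limma adjusted p = 0.474, 0.541 and 0.629).

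MT1M, MT1F, the dimmer MT1X probe and MT2A differed from this order. In MT2A, given above, and in the dimmer MT1X probe the ALKBH3 array at 48 h was highest. MT1M stood at -1.17 with control and -0.47 with ALKBH3 shRNA at 48 h and at -2.22 and -1.26 at 96 h. MT1F stood at 0.64 and 0.89 at 48 h and at -0.34 and 0.25 at 96 h. In both genes the signal at 96 h was lower with either shRNA, so that the ALKBH3 array at 96 h lay below the control array at 48 h and the groups overlapped. The difference over both time points was 0.83 ± 0.45 for MT1M and 0.42 ± 0.40 for MT1F (SE; limma adjusted p = 0.767 and 0.910). With the time point as a block the SE was 0.10 for MT1M and 0.12 for MT1F. The dimmer MT1X probe stood at -0.66 and -0.49 at 48 h and at -1.31 and -0.61 at 96 h. Its groups did not overlap, and its difference of 0.43 ± 0.25 (SE; limma adjusted p = 0.781) was smaller than that of the brighter probe of the same gene.

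**Figure D1:**
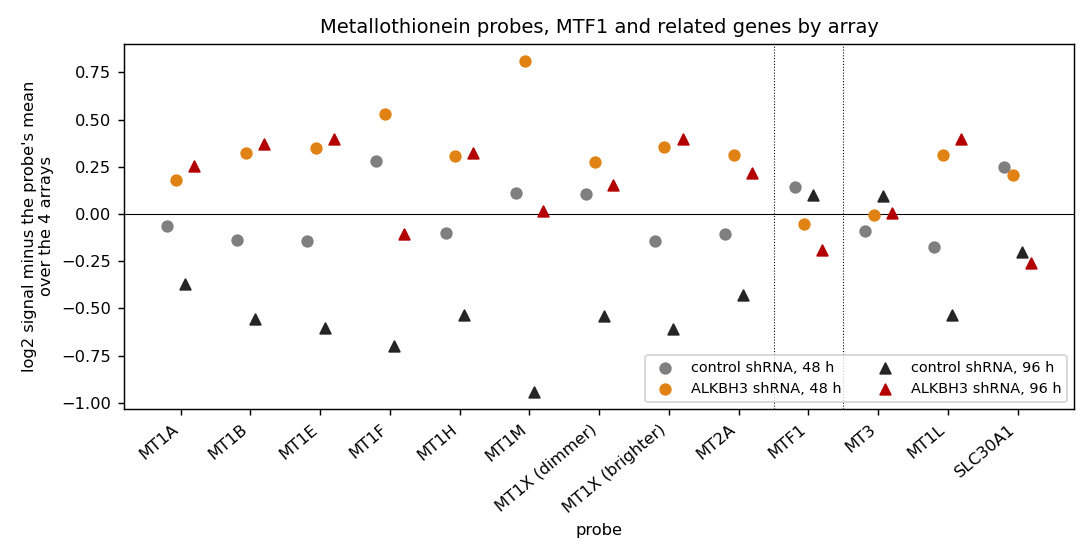
Log2 signal of each probe on each of the 4 arrays, relative to the probe's own mean over the arrays; circles are 48 h and triangles 96 h, grey and black control shRNA, orange and red ALKBH3 shRNA. For all 9 metallothionein probes the control array at 96 h is lowest and each ALKBH3 array lies above the control array of its time point. For MTF1 each ALKBH3 array lies below the control array of its time point, and for MT3 and SLC30A1 the arrays of a time point lie close together.

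Counted as a group, 7 of the 9 probes had both ALKBH3 arrays above both control arrays, against 17.5% of all probes tested, the exceptions being MT1F and MT1M. At least 1.5-fold was reached by 1 probe, MT1M, at 48 h, against 4.73% of all probes, and by 9 at 96 h, against 4.41%. Ranked by the difference at 96 h, the 9 probes lay within the highest 1.33% (MT1E) to 4.25% (MT1F) of all probes, and by that at 48 h within 3.39% (MT1M) to 22.2% (MT1X, dimmer probe). Over all probes tested the median difference was -0.01 at 48 h and 0.02 at 96 h. For each of the 9 probes the difference was larger at 96 h than at 48 h, by 0.23 to 0.52 with a median of 0.45. Each time point is 1 array against 1 array, so this was not tested. The control array at 96 h, lowest for all 9 probes, also had the lowest share of probes well above background, 67.0% against 68.5% to 70.9% on the other arrays. The part of this in the result was not tested. Without that array the median difference over the 9 probes was 0.37 in place of 0.63, and that of MT1F was -0.07.

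**Figure D2:**
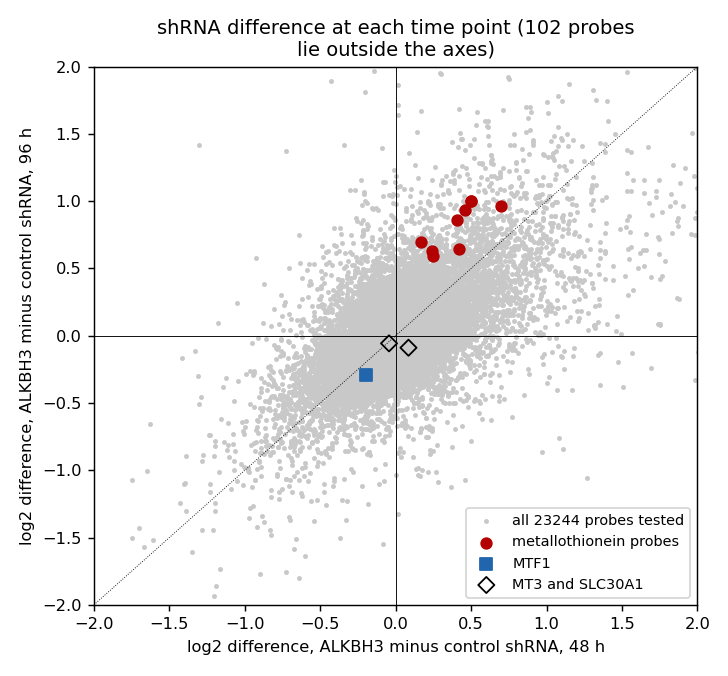
Log2 difference between ALKBH3 and control shRNA at 96 h (vertical) against that at 48 h (horizontal) for the 23244 probes tested (grey), with the 9 metallothionein probes in red, MTF1 as a blue square and MT3 and SLC30A1 as open diamonds; 102 probes lie outside the axes. The metallothionein probes lie above the dotted line of equal difference, at 0.17 to 0.70 at 48 h and 0.59 to 1.0 at 96 h.

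None of the 9 probes passed the call of a 2-fold change over both time points with an unadjusted limma p under 0.05. That call took 0.895% of all probes as higher and 0.232% as lower, and 0 of the member probes either way. By the unadjusted limma p alone, 6 of the 9 probes were higher, against 4.34% of all probes tested, and none passed after Benjamini-Hochberg adjustment over the 23244 probes. With the time point, which is also the slide, as a block, 9 of 9 had an unadjusted p under 0.05 in the higher direction, against 12.3% of all probes. After adjustment 1 probe, MT1M, passed in that fit (adjusted p = 0.0478), against 1.41% of all probes. The others lay between 0.0780 (MT2A) and 0.198 (MT1X, dimmer probe). Reading the adjusted p in a fit with a block, here and below, was chosen after seeing the data. The 9 probes belong to genes of closely related sequence and cannot be taken as independent of one another. The probe sequences were not at hand, so binding to transcripts of neighbouring genes was not measured.

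MTF1, the regulator of the family, had a lower signal with ALKBH3 shRNA at both time points. Its probe stood at -1.05 with control and -1.25 with ALKBH3 shRNA at 48 h and at -1.09 and -1.38 at 96 h. The difference of -0.19 at 48 h and -0.29 at 96 h came to -0.24 ± 0.12 over both (SE; limma adjusted p = 0.753), with a 95% interval from -0.57 to 0.08 that included 0. With the time point as a block the interval was -0.47 to -0.01 and the adjusted p 0.204.

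Between the time points, all 9 metallothionein probes were lower at 96 h than at 48 h with control shRNA, by a median of -0.46 on the log2 scale and a range from -1.06 (MT1M) to -0.31 (MT1A). Of all probes, 52.2% were lower at 96 h with control shRNA. With ALKBH3 shRNA the median was 0.02. There, 5 probes (MT1A, MT1B, MT1E, MT1H and the brighter MT1X probe) were higher by 0.02 to 0.08, MT2A differed by -0.09 and the dimmer MT1X probe by -0.12, while MT1F and MT1M were lower by -0.64 and -0.79. The sign of that median turned with the normalization between the arrays.

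MT1F and MT1M were the 2 members with the largest difference between the time points over both shRNAs, -0.81 and -0.93 (limma adjusted p = 0.199 and 0.310). Neither they nor another member passed the call of a 2-fold change with an unadjusted p under 0.05, which took 0.692% of all probes as lower. With shRNA as a block both fell at an adjusted p of 0.0349 and 0.0296, as did 4.93% of the 23274 probes tested. The other members lay between -0.39 and -0.09, MTF1 included.

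**Figure D3:**
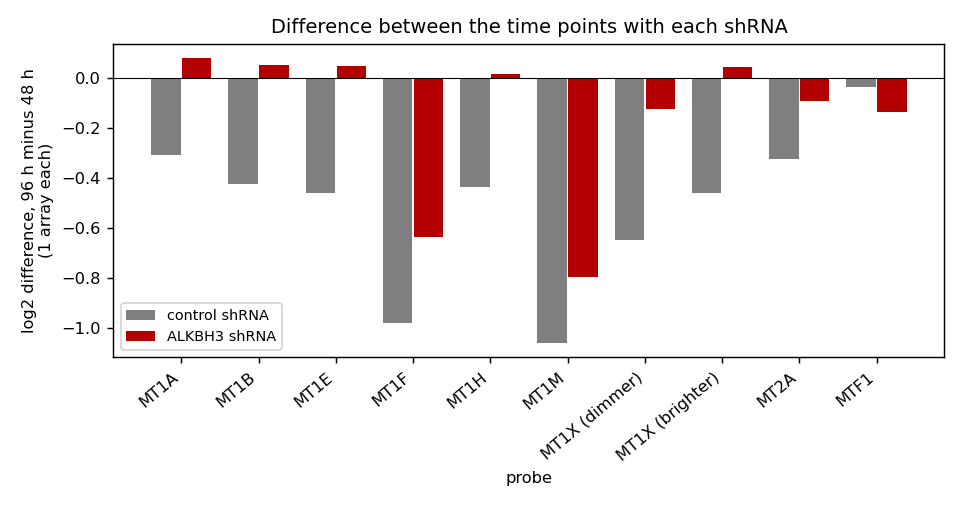
Log2 difference between 96 h and 48 h for each probe with control shRNA (grey bars) and with ALKBH3 shRNA (red bars); each bar is 1 array against 1 array and has no error. All 9 metallothionein probes lie below 0 with control shRNA, whereas with ALKBH3 shRNA 5 lie slightly above 0 and MT1F and MT1M stay below -0.6.

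Of the wider metallothionein family, 5 further genes or pseudogenes had a probe. MT1L, a transcribed pseudogene of the cluster, stood at 3.91 with control and 4.40 with ALKBH3 shRNA at 48 h and at 3.56 and 4.48 at 96 h, a difference of 0.71 ± 0.17 over both (SE; limma adjusted p = 0.440). Relative to their own means, the 4 array values of MT1L, MT1B, MT1E, MT1H and the brighter MT1X probe differed between any of these probes by at most 0.077, and those of MT1E and MT1X by at most 0.0025. MT3, the form known from brain, stood at 1.41, 1.49, 1.59 and 1.5 in the same order, and its difference was -0.00 ± 0.13 with a 95% interval from -0.35 to 0.34. The probes of MT4 and MT1DP were well above background on 0 arrays and that of MT1IP on 3.

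Genes that move metals across membranes were counted beside them. Of 10 zinc exporters, 8 were well above background on all 4 arrays, with a median difference of 0.07, and of 14 zinc importers 13, with a median of -0.07. The 10 copper handling genes had a median of 0.02 and the 8 iron handling genes one of -0.03, against 0.66 for the 8 detected metallothionein genes. None of the genes in these lists passed the call of a 2-fold change with an unadjusted p under 0.05. SLC30A1, the zinc exporter that MTF1 is known to induce, stood at -1.04 with control and -1.08 with ALKBH3 shRNA at 48 h and at -1.49 and -1.55 at 96 h. Its difference was -0.05 ± 0.24 (SE; limma adjusted p = 0.991), with a 95% interval from -0.69 to 0.58, or from -0.27 to 0.17 with the time point as a block.

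The largest differences among the exporters were those of SLC30A3, a vesicular zinc transporter, with 0.94 at 48 h and 0.69 at 96 h, of SLC30A2 with 0.47 over both and of SLC30A6 with 0.20. SLC30A3 and SLC30A2 were dim, with intensities between 43.0 and 88.2 and between 35.0 and 71.9. The lowest intensity well above background lay between 21.0 and 28.8 on the 4 arrays. SLC30A3 passed the adjusted p with the time point as a block (0.0484) and not without it (limma adjusted p = 0.358). Among the importers SLC39A5 stood 0.35 and SLC39A3 0.25 higher and SLC39A14 differed by -0.29. SLC39A5 was dim as well, with intensities between 25.1 and 55.3. Among the copper genes SLC31A2 and SCO1 differed by 0.34 and 0.23 and the copper pump ATP7A by -0.19, with its other probes between -0.11 and 0.18. Among the iron genes ACO1, which encodes an iron regulatory protein, differed by -0.87, the transferrin receptor TFRC by -0.56 and the haem oxygenase HMOX1 by 0.25. None of these importers, copper or iron genes passed an adjusted p under 0.05 in either fit of the shRNA comparison.

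Between the time points, over both shRNAs, SLC30A1 fell by 0.46 and the importer SLC39A7 by 0.78, whereas SLC39A2 and SLC39A5 rose by 0.64 and 0.63 (adjusted p = 0.0458, 0.0319, 0.0323 and 0.0351 with shRNA as a block). SLC39A2 and SLC39A5 were dim, with intensities between 29.1 and 57.6 and between 25.1 and 55.3. The iron transporter SLC11A2 fell by 0.57 and HMOX1 by 0.55 (adjusted p = 0.0360 and 0.0372 in that fit). Another SLC11A2 probe differed by -0.42 and did not pass (adjusted p = 0.0550 with shRNA as a block). SLC30A2 differed by 0.41, SLC30A7 by -0.38, ACO1 by 0.58, ATP7A by -0.43, SLC31A1 by -0.36 and SLC31A2 by -0.35, and by these probes, the brightest of each gene, the 6 did not pass. Another SLC31A1 probe differed by -0.57 (adjusted p = 0.0350 with the block). The other ATP7A probes were at -0.68 and -0.59 (adjusted p = 0.0334 and 0.0485 with the block) and at 0.12, which did not pass.

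The glucocorticoid receptor NR3C1 and 7 of its common targets had a median difference of 0.02. The largest were those of KLF9 with -0.40, SGK1 with 0.38 and TSC22D3 with 0.23. Between the time points FKBP5 was higher by 0.89 and KLF9 lower by -0.95 over both shRNAs (adjusted p = 0.0294 for each with shRNA as a block). Among markers of other cell types, COL1A1 was the only fibroblast marker of 3 detected and stood 0.51 higher at 48 h and 0.90 higher at 96 h with ALKBH3 shRNA. COL1A2 and PDGFRB were well above background on 0 arrays. The leukocyte genes PTPRC, CD3E, CD14 and CD68 differed by between -0.09 and 0.23, and the endothelial genes PECAM1, CDH5 and VWF by -0.59, -0.20 and 0.29, VWF being well above background on 3 arrays. Of the epithelial markers, KRT8 differed by 0.03, KRT18 by -0.07, CDH1 by 0.74 and EPCAM by 0.98 (EPCAM limma adjusted p = 0.451, or 0.0377 with the time point as a block). The part of these in the metallothionein result was not tested.

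**Figure D4:**
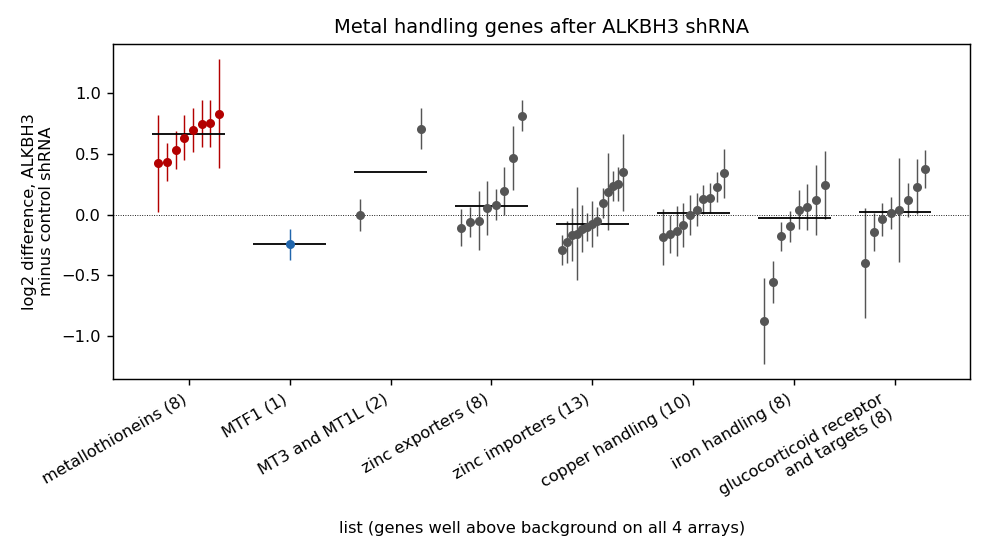
Log2 difference between ALKBH3 and control shRNA over both time points for each gene of each list that was well above background on all 4 arrays (number in brackets), 1 probe a gene, the brightest; vertical lines are the standard error of the fit and horizontal lines the median of the list. All 8 detected metallothionein genes lie above 0, between 0.42 and 0.83, while the zinc, copper, iron and glucocorticoid lists lie on both sides of 0.

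Outside the family, the probes whose pattern over the 4 arrays was most like the median metallothionein probe were ranked by the root mean square of the log2 difference, each probe relative to its own mean. The closest 5 of 22116 were a transcript without a gene name (0.024), the adrenergic receptor ADRA1D (0.037), the hypoxia factor EPAS1 (0.040), the homeobox gene HOXA11 (0.042) and SKIL (0.049), a repressor of TGF-beta signalling. Of all candidates 44, or 0.199%, lay within 0.1. Among the metallothionein probes themselves this distance ran from 0.036 for MT1H to 0.35 for MT1M. It rests on 4 arrays and describes likeness of pattern only.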

How the data were processed

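Each of the 4 RNA samples of PC3 cells, 1 per shRNA and time point, went to its own single-colour Agilent array. The authors deposited spot intensities from Agilent Feature Extraction (10.7.3.1 in the file headers), which had been background-subtracted and detrended on each array alone, so differences between arrays remain in them. The authors also deposited a log2 table normalized between the arrays, and the methods name limma for that step. It was used as an alternative.

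Marked spots (180 to 379 an array) were removed, and log2 intensities were centred on the 75th percentile of each array, at an intensity of 2134 to 2385. Tested were probes that, on 1 side of a comparison or on each, exceeded background on both arrays. R 4.3.3, data.table (1.17.8) and limma 3.58.1 (lmFit, eBayes) were used without a covariate, calls were a 2-fold change with an unadjusted p under 0.05, and Benjamini-Hochberg adjustment ran over all probes tested. The code was tested on simulated data. Arrays of a time point deviated together (correlation 0.660 over 23244 probes), and their time point and slide are those of the labels and headers. The fit with that block was an alternative, and reading it by its adjusted p was added after seeing the data. Further alternatives were normexp (offset 50), quantile normalization, median centring, the percentile taken over probes detected on each array, other filters on dim probes, 1 probe or the mean of the probes a gene, the methods' t-test, a 1.5-fold cutoff, the adjusted p, and leaving out each array.

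Accessions gave gene names through RefSeq (GRCh38.p14), by which 24910 of 34127 probes had a name. Named are all member probes, ALKBH3, up to 3 genes of each list with the largest shRNA and up to 3 with the largest time difference, and the 5 probes nearest in pattern. MT1IP, MT4, MT1DP, KLK3 and the undetected fibroblast markers are named as members of their lists. Of the cell type markers, only those that bear on the text are named. The genes and lists were chosen with earlier results of these data known.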

Additional observations from a re-analysis of the deposited data

How the results depend on the processing

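Each of the 9 metallothionein probes remained higher with ALKBH3 shRNA at both time points, with the larger difference at 96 h, under all 7 ways of scaling the arrays, and MTF1 remained lower. With normexp, with normexp and quantile normalization and with the authors' table, 7 in place of 9 probes reached 1.5-fold at 96 h and 8 in place of 7 had groups that did not overlap. With the main scaling the shares of all probes tested were 4.41% and 17.5%. They were not counted under the other scalings, so these member counts have no share to be set against. The call took 0 member probes as higher, against 208 of all 23244 probes tested. With a 1.5-fold cutoff it took 4. At most 1008 of all probes could pass there, the number higher at an unadjusted p under 0.05. The replicate block took 1 with an adjusted p, against 328 of all probes, and 5 with a 1.5-fold cutoff, against 864. These 2 block settings were chosen after seeing the data. Between the time points the call took 0 member probes as lower, but 1 with a 1.5-fold cutoff and 2 under each of those block settings. Of all 23274 probes, 1147, or 4.93%, were lower with the block and an adjusted p. No setting took more, so 4.93% is also the most that either 1.5-fold setting could take. The methods' t-test and the replicate block at the 2-fold cutoff left both counts of member probes at 0.

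With 1 array left out, the median shRNA difference over the 9 probes ran from 0.37 without the control array at 96 h to 0.91 without that at 48 h. The difference of MT1F ran from -0.068 without the control array at 96 h to 0.91 without that at 48 h. With an array out, the shRNAs and the time points are no longer balanced. The median time difference, -0.21 over all arrays, ran from -0.71 without the ALKBH3 array at 96 h to 0.20 without the control array at 96 h. That of MT1A ran from -0.43 to 0.20, MT1B from -0.65 to 0.28, MT1E from -0.71 to 0.29, MT1H from -0.64 to 0.22, MT1X (brighter) from -0.71 to 0.29, MT2A from -0.53 to 0.11 and MTF1 from -0.23 to 0.059. MT1F, MT1M and the dimmer MT1X probe (-0.73 to -0.039) were lower at 96 h in each. The shRNA difference ran from 0.30 to 1.36 for MT1M and from 0.11 to 0.76 for the dimmer MT1X probe. Over all probes the shRNA call took 208 as higher and 54 as lower, with 0 to 864 and 0 to 365 across the alternatives, and the time call took 75 as higher and 161 as lower, with 0 to 1123 and 0 to 1147; the 0 came from the adjusted p without a block. With 1 array for each shRNA and time point, differences near the spread between these arrays were not detectable, and signals below background carry no order.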
